A study of Mus musculus with 6 samples.

Results

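Cysteine supply and glutathione genes were examined in dissected skin of wild type mice and of mice carrying the targeted Hoxc13 allele. Chac1, which encodes an enzyme that breaks down glutathione, read 7.99-fold lower in mutant skin, and Cth, which encodes the last enzyme of cysteine synthesis, read 1.97-fold lower. The other 6 measured genes, for cystine import, the first step of cysteine synthesis and glutathione synthesis, differed by 1.39-fold or less. Of the 9 genes of the rule (Chac1, Cth, Cbs, Slc7a11, Slc3a2, Gclc, Gclm, Gss and Ggct), 8 had a named probe set among 16331 probe sets tested, and Ggct was skipped. They were selected on earlier wild type against mutant values of these same arrays, together with their place in cysteine synthesis, cystine import and glutathione turnover. Their differences, and their counts of calls, are therefore given as a description with no test.

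Total RNA from 3 wild type and 3 mutant skin samples was hybridised to Affymetrix arrays. The wild type group is labelled WT and the mutant group Hoxc13 knockout Hoxc13tm1Mrc, both on a C57BL/6 background, with 5 dpn in the sample titles and male as the sex. The labels name no Cre driver or transgene, and the design text calls the samples independent without saying whether animals were pooled. The p-values given for other genes set the group difference against the spread between these samples, which limma moderates with a prior from all probe sets. The 3 arrays per group limit the precision.

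Cysteine enters a cell as cystine through a transporter made of the light chain Slc7a11 and the heavy chain Slc3a2, or is made from homocysteine by Cbs and then Cth. The ligase made of Gclc and Gclm joins cysteine to glutamate, and Gss adds glycine to give glutathione. Chac1 and Ggct act on the way back: Chac1 splits glutathione inside the cell into 5-oxoproline and cysteinylglycine, and Ggct splits gamma-glutamyl dipeptides. In the hair follicle, cysteine is also spent on the keratins and keratin-associated proteins of the shaft, which are cross-linked through disulfide bonds as the shaft hardens. Hoxc13 encodes a homeodomain protein needed for hair formation.

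Upstream sequences of Chac1 and Slc7a11 are shown because these genes alone, among the 6 measured members with an entry in the RefSeq promoter table (Chac1, Cbs, Slc7a11, Slc3a2, Gclm and Gss), held the letters TGATGNAA in a window from 250 bases before to 50 after the gene's start. These letters are the core of the composite element bound by ATF4 with C/EBP factors, and Chac1 and Slc7a11 are known ATF4 targets. Each line gives the 250 bases before the start, 5′ to 3′ on the gene's strand, in build GRCm38.p6, with matches on either strand in capitals. Chac1 lies at chr2:119350992-119351241 on the + strand and Slc7a11 at chr3:50443614-50443863 on the - strand.
Chac1: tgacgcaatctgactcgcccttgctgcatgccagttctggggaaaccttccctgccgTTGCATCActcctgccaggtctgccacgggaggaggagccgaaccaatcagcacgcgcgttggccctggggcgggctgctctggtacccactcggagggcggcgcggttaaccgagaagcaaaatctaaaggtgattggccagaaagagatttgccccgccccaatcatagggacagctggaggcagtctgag
Slc7a11: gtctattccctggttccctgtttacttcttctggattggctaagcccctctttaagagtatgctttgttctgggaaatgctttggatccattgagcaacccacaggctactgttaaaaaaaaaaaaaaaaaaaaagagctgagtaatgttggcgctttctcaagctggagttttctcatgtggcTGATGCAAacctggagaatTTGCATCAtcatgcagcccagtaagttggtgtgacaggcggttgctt
The Chac1 match began 193 bases before the start, in reverse orientation. Slc7a11 held 2 matches, beginning 66 and 47 bases before the start, in opposite orientations. Of 32851 RefSeq promoter windows of the same length, 3.97% held the motif on either strand. The antioxidant response element core, TGACNNNGC, was found in the Gclm window, 134 bases before the start, and in 12.4% of all windows. Of 2 motifs preferred by posterior Hox proteins, TTTATNG was found in the Gss window, 33 bases before the start, and in 10.9% of all windows. The other, TTTACGA, was in none of the 6 windows and in 0.597% of all windows. No window of the 6 held more than 1 of these 4 motifs. Matches are letters in a window and not sites shown to be bound, and no match says only that these letters are not in this window.

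The Hoxc13 probe set read 9.63, 9.81 and 9.83 in wild type replicates 1, 2 and 3 and 8.95, 8.75 and 9.74 in mutant replicates 1, 2 and 3. The groups overlapped, and limma's test of the -0.61 (SE 0.23) between them missed the threshold (adjusted p = 0.293). Hoxc13 was called lower with array weights (-0.83, limma adjusted p = 0.00878) and in the fit that left out mutant replicate 3 (-0.90, limma adjusted p = 0.00114). The sources used here do not place the probes relative to the targeted exons, so Hoxc13 gives no check of the genotype labels. Mutant replicate 3 differed most from the other mutant arrays, at -26.6 on the second principal component (15.5% of the variance) against 13.1 and 11.1. Xist read 11.15 to 11.67 on the 6 arrays and 5 Y-linked genes read 2.98 to 4.89, against the label male. Krt5, Krt14 and Krt10, which define keratinocytes, read at least 12.51 on all 6 arrays.

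Chac1 had the largest difference of the 8 genes. Its log2 RMA values were 9.98, 8.88 and 9.24 in wild type replicates 1, 2 and 3 and 6.25, 6.21 and 6.65 in mutant replicates 1, 2 and 3. The lowest wild type array lay above the highest mutant array, and the wild type arrays spread over 1.10 log2 units. The means were 9.37 ± 0.56 and 6.37 ± 0.24 (SD, n = 3 each), a difference of -3.00 (SE 0.26). Among 15644 named genes, 53 including Chac1 had a difference at least this far below 0, and 41 of them were keratins or keratin-associated proteins.

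Values of Cth, cystathionine gamma-lyase, were 9.44, 9.07 and 9.33 in wild type and 8.32, 8.51 and 8.08 in mutant replicates 1, 2 and 3. All 3 mutant arrays lay below all 3 wild type arrays, and mutant replicate 3 was the lowest of them. The means were 9.28 ± 0.19 and 8.30 ± 0.22 (SD, n = 3 each), a difference of -0.98 (SE 0.14). Of the named genes, 147 including Cth had a difference at least this far below 0. Cth was the only measured gene of the 8 in which mutant replicate 3 was not the highest mutant array.

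Cbs, cystathionine beta-synthase, which makes the substrate of Cth, had values of 8.18, 8.32 and 8.28 in wild type and 7.55, 7.70 and 8.12 in mutant replicates 1, 2 and 3. Mutant replicate 3 lay just under the lowest wild type array, so the groups did not overlap. The difference was -0.47 (SE 0.14), with means of 8.26 ± 0.07 and 7.79 ± 0.30 (SD, n = 3 each).

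**Figure D1:**
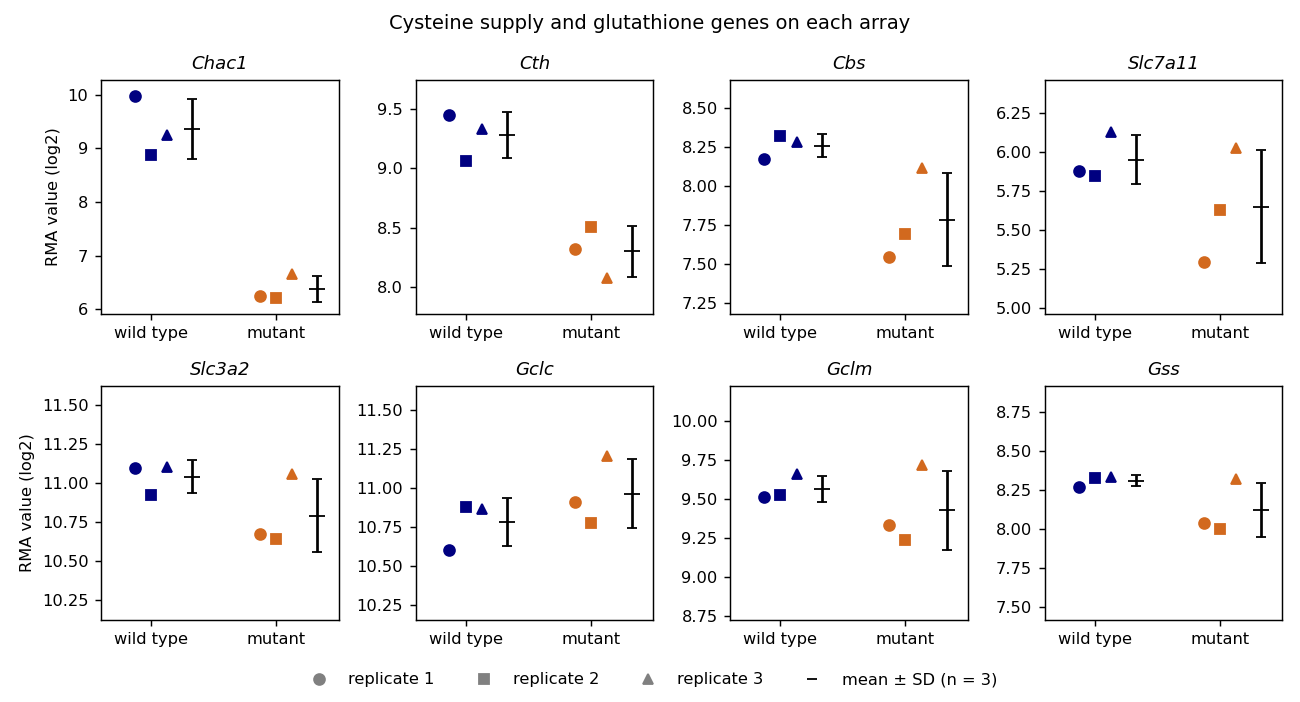
Log2 RMA value (vertical axis, a separate scale for each gene) of the 8 measured genes on each array, with the replicate number as the symbol and the mean ± SD (n = 3) beside each group. Chac1 and Cth are low on all 3 mutant arrays, while Slc7a11, Slc3a2 and Gss are low on mutant replicates 1 and 2 and reach the wild type range on mutant replicate 3.

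Cystine import genes showed small differences that depended on the mutant array. Slc7a11 read 5.88, 5.85 and 6.13 in wild type and 5.30, 5.63 and 6.03 in mutant replicates 1, 2 and 3. Of the mutant arrays, replicate 3 fell inside the wild type range and the others below it. The difference was -0.30 (SE 0.18). Its mean level was above 28.3% of all probe sets, close to the lower quartile of the arrays (5.485), where RMA compresses differences. The partner chain Slc3a2 read 11.10, 10.92 and 11.10 in wild type and 10.67, 10.64 and 11.06 in mutant replicates 1, 2 and 3, a difference of -0.25 (SE 0.12). As for Slc7a11, only replicate 3 of the mutant arrays fell inside the wild type range. The within-array difference between the 2 chains, Slc7a11 minus Slc3a2, averaged -5.09 ± 0.12 on the wild type arrays and -5.14 ± 0.20 on the mutant arrays (SD, n = 3 per group), with overlapping groups.

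Glutathione synthesis genes differed least. Gclc, the catalytic subunit of the ligase, read 10.61, 10.88 and 10.86 in wild type and 10.91, 10.77 and 11.21 in mutant replicates 1, 2 and 3. It was the only gene of the 8 with a higher mutant mean, by 0.18 (SE 0.13), and the groups overlapped. Gclm, the regulatory subunit, read 9.51, 9.52 and 9.66 in wild type and 9.33, 9.24 and 9.72 in mutant replicates 1, 2 and 3, a difference of -0.14 (SE 0.13) with overlapping groups. Gss, glutathione synthetase, read 8.27, 8.33 and 8.33 in wild type and 8.04, 8.00 and 8.32 in mutant replicates 1, 2 and 3, a difference of -0.19 (SE 0.10). For both, mutant replicates 1 and 2 lay below the wild type range, and replicate 3 lay above it for Gclm and within it for Gss.

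The ligase subunits, of which neither was called, were also compared within each array. Gclc minus Gclm was 1.09, 1.35 and 1.20 in wild type and 1.58, 1.54 and 1.49 in mutant replicates 1, 2 and 3. All 3 mutant arrays, replicate 3 included, lay above all 3 wild type arrays. The mean of this within-array log2 difference was 1.22 ± 0.13 on the wild type and 1.54 ± 0.05 on the mutant arrays (SD, n = 3 per group), a shift of 0.32. It was singled out after the values were seen and has no test. Among the other partner pairs compared, Chac1 minus Chac2 also separated the groups (shift -2.69). The groups overlapped for Cth minus Cbs (-0.50) and, as given above, for Slc7a11 minus Slc3a2. How often gene pairs in general separate the groups was not analysed here. An offset between probe sets is part of each value, so only its shift between groups can be read.

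In the limma fit over all probe sets, 2 of the 8 genes (Chac1 and Cth) were called lower at an adjusted p threshold of 0.05 and 0 were called higher. Over all probe sets, 2.08% were called, 1.60% lower and 0.478% higher. The groups did not overlap for 3 of the 8 genes (Chac1, Cth and Cbs) and for 20.3% of all probe sets. Lower mutant means were found for 7 of the 8, with a median difference of -0.28 beside 0.0247 over all probe sets. Because these genes were selected with this contrast in view, nothing is read from the counts.

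Leaving out single arrays moved the number of calls but not the direction of any of the 8 genes. Chac1 was called with any single array left out, and its difference ranged from -3.24 to -2.69. Cth ranged from -1.08 to -0.86, and its call was lost without wild type replicate 1, wild type replicate 3 or mutant replicate 1, which left 1 call. Without mutant replicate 3, 6 of the 8 were called lower (Chac1, Cth, Cbs, Slc7a11, Slc3a2 and Gss), in a fit that called 14.2% of all probe sets, 6.23% lower and 7.95% higher. With array weights, 5 were called lower (Chac1, Cth, Cbs, Slc3a2 and Gss). That fit called 1880 of 16331 probe sets, 839 lower and 1041 higher. Over the left-out arrays Cbs ranged from -0.64 to -0.35, Slc3a2 from -0.39 to -0.18 and Gss from -0.29 to -0.13, each farthest from 0 without mutant replicate 3. Slc7a11 ranged from -0.49 without mutant replicate 3 to -0.13 without mutant replicate 1. Gclm ranged from -0.28 without mutant replicate 3 to -0.0413 without mutant replicate 2, and was at -0.0893 without mutant replicate 1 and -0.0905 without wild type replicate 3. Gclc ranged from 0.0618 without mutant replicate 3 to 0.28 without mutant replicate 2, and was at 0.0943 without wild type replicate 1.

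**Figure D2:**
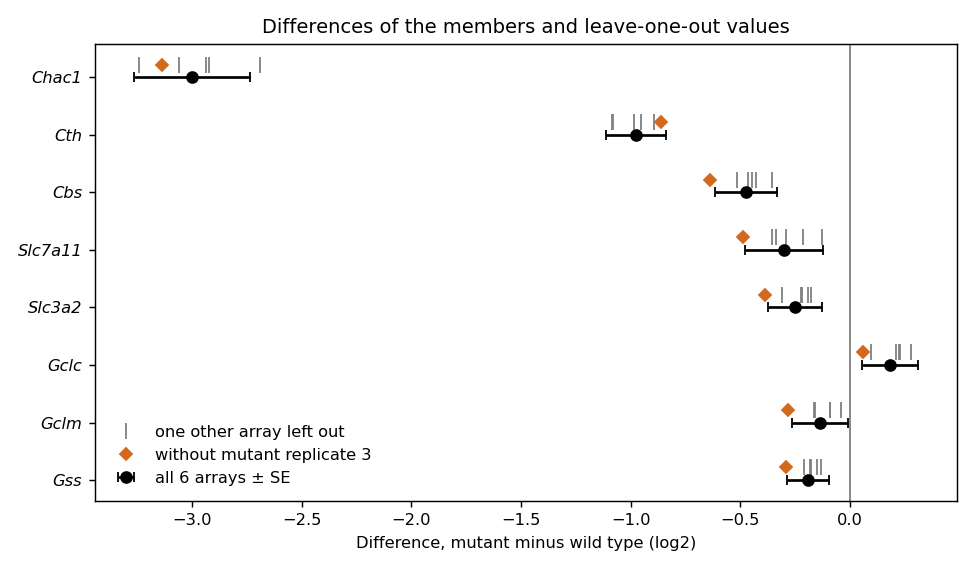
Difference between mutant and wild type skin (log2, horizontal axis) for the 8 measured genes. Black points with bars are the fit of all 6 arrays ± SE, grey ticks the fits with 1 other array left out, and diamonds the fit without mutant replicate 3. The diamond is the outermost value on the negative side for Cbs, Slc7a11, Slc3a2, Gclm and Gss, and not for Chac1 or Cth.

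Mutant replicate 3 read apart from mutant replicates 1 and 2 in all 8 genes. It read higher than the mean of mutant replicates 1 and 2 by 0.30 to 0.56 for Cbs, Slc7a11, Slc3a2, Gclc, Gclm and Gss and by 0.42 for Chac1. For Cth this difference was -0.34. It was the highest mutant array for 7 of the 8 genes and for 44.7% of all probe sets. Against the wild type mean, mutant replicate 3 was at -2.72 for Chac1 and -1.20 for Cth. For the other 6 genes it lay between -0.14 (Cbs) and 0.42 (Gclc).

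Markers of follicle cells differed in how mutant replicate 3 read. All 8 measured hair shaft keratins of 10 listed were called lower, and their summed level (log2) was 15.40 to 15.73 in wild type and 8.58 to 9.11 in mutant skin, lowest on mutant replicate 3. Of 8 measured inner root sheath markers 2 were called lower, and their summed level was 16.25 to 16.34 in wild type and 15.89 to 16.27 in mutant skin, with mutant replicate 3 at 16.27, within the wild type range. The 5 melanocyte markers summed to 13.97 to 14.19 in wild type and 13.53 to 14.16 in mutant skin, with mutant replicate 3 at 14.16 and none called. On mutant replicate 3 the hair shaft sum, Chac1 and Cth all lay below the wild type range. Chac1 nonetheless read 0.42 higher on this array than the mean of mutant replicates 1 and 2, while the hair shaft sum and Cth were lowest on it. Earlier values of this contrast had been used to select Chac1 and Cth, so no likeness to shaft markers is read from this. Cbs lay below the wild type range on this array, and Gclc and Gclm lay above it. Bright genes weigh most in the marker sums. Those of inner root sheath and melanocyte markers lay in the wild type range, as did Slc7a11, Slc3a2 and Gss. This was not particular to these cells, as fibroblast, endothelial, mast cell and skeletal muscle sums on this array lay in that range too. Basal keratinocyte (14.77) and macrophage (10.66) sums lay above it, and upper epidermis, fat, red cell and liver sums below it. No gene is placed in a cell type by these values. Outside the follicle, the 4 macrophage markers (none called) summed to 10.59 to 10.65 in wild type and 10.66 to 11.21 in mutant skin, and the 7 skeletal muscle markers (1 called higher) to 14.15 to 15.04 and 14.80 to 15.53. The 4 mast cell markers (none called) summed to 11.70 to 12.07 in wild type and 11.98 to 12.89 in mutant skin. Of 5 upper epidermis markers only Ivl was called lower, and their sums were 15.37 to 15.41 and 15.24 to 15.57. The part of these cells in the differences was not tested, and in bulk skin fewer cells of a type and less RNA per cell cannot be told apart.

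Transcripts of the keratin-associated proteins of the shaft read far lower on the same arrays. The lists follow gene family names, and the cysteine share of the proteins was not analysed here. All 11 measured glycine-tyrosine-rich keratin-associated protein genes were called lower, with a median of -7.54, and 22 of 24 other keratin-associated protein genes, with a median of -6.21 and a range from -7.91 to -0.28. The background is the 1.60% of probe sets called lower. Without mutant replicate 3 the numbers were 11 and 23. These decreases were known when the 8 genes were selected and give no independent support to the link. The link itself between cysteine supply and shaft proteins was not tested, as protein levels, cysteine and glutathione were not measured here.

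The genes with array profiles nearest to Chac1 included genes of the hair shaft. Likeness was measured over the 6 arrays as the root mean square difference between profiles, each with its own mean removed, and the 5 nearest of all named genes were taken. The group difference weighs heavily in this distance. Shaft genes near Chac1 are therefore no separate support, as 41 of the 53 named genes as low as Chac1 were keratins or keratin-associated proteins. Krtap12-1, a keratin-associated protein gene, was nearest, at 0.130. It read 10.21, 9.07 and 9.82 in wild type and 6.60, 6.42 and 6.95 in mutant replicates 1, 2 and 3. As with Chac1, the highest wild type array was replicate 1, the lowest was replicate 2, and the highest mutant array was replicate 3. The next were Capn12, a calpain protease gene (0.231), Dsc2, a desmosomal cadherin gene (0.293), Acsm3, an acyl-CoA synthetase gene (0.336), and S100a3, a cysteine-rich calcium-binding protein gene of the hair cuticle (0.390).

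For Cth the nearest profiles were those of Atp13a4 (0.090), Them4 (0.093), Mfap3l (0.119), Cadm4 (0.127) and Fabp7 (0.132). Atp13a4, a P-type ATPase gene, read 8.85, 8.58 and 8.86 in wild type and 7.79, 7.83 and 7.38 in mutant replicates 1, 2 and 3. Like Cth, it was lowest on mutant replicate 3. For Cbs they were Hunk, a protein kinase gene (0.034), Entpd3, an ectonucleotidase gene (0.035), Mocos, the molybdenum cofactor sulfurase gene (0.042), Sybu (0.044) and Bambi, a BMP pseudoreceptor gene (0.052). Hunk read 8.69, 8.91 and 8.89 in wild type and 8.07, 8.25 and 8.68 in mutant replicates 1, 2 and 3, with replicate 3 just below the wild type range. Smaller profiles lie closer to many genes, so the distances of the 3 genes are not comparable with each other.

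**Figure D3:**
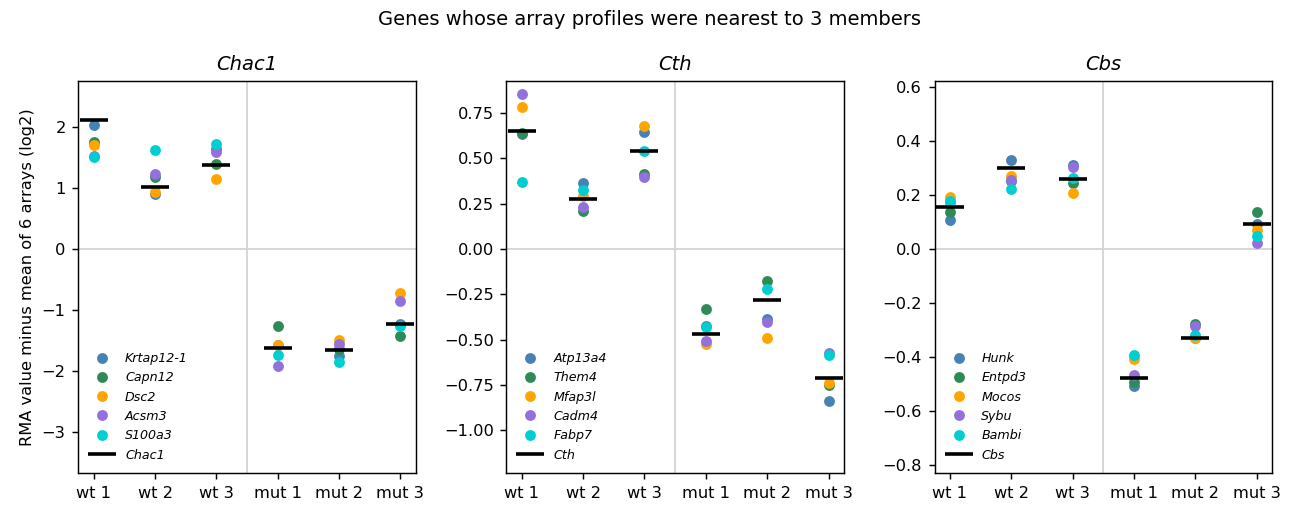
Log2 RMA value minus the mean of the 6 arrays (vertical axis, a separate scale in each panel) for Chac1, Cth and Cbs (black bars) and the 5 named genes nearest to each (coloured points), by array (wt, wild type; mut, mutant). Mutant replicate 3 stays with the other mutant arrays in the Chac1 and Cth panels and lies between them and wild type in the Cbs panel.

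Other genes of sulfur amino acid, glutathione and thioredoxin metabolism were counted on 9 lists of 125 genes, of which 107 had a named probe set. The limma test called 5 of them (4.67%, beside 2.08% of all probe sets), 4 lower and 1 higher. Their groups did not overlap in 24.3%, beside 20.3% of all probe sets, and their median difference was 0.0203. Of the 9 lists, 4 had no call and the others 1 each.

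On the glutathione breakdown list (11 measured) only Lap3 was called, a leucine aminopeptidase gene whose product can split cysteinylglycine, the dipeptide that Chac1 releases. Lap3 read 12.44, 12.52 and 12.56 in wild type and 11.63, 11.65 and 11.92 in mutant replicates 1, 2 and 3. The mutant arrays all lay below the wild type arrays, and Lap3 fell by 0.78 (SE 0.10, limma adjusted p = 0.00668). The call was lost without wild type replicate 3 (-0.75, adjusted p = 0.0502). Chac2, the paralog of Chac1, read 8.59, 8.37 and 8.53 in wild type and 8.33, 8.28 and 7.94 in mutant replicates 1, 2 and 3 (-0.31, SE 0.12, adjusted p = 0.287) and did not pass. Chac2 was singled out with its values in view. The list median was -0.0457.

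Among 13 measured thioredoxin genes, Txnrd1, the cytosolic thioredoxin reductase gene, was the only call. It read 9.16, 9.28 and 9.21 in wild type and 8.46, 8.61 and 8.71 in mutant replicates 1, 2 and 3, and fell by 0.62 (SE 0.08, limma adjusted p = 0.0111). The call was lost without any single wild type array or without mutant replicate 2 (range over left-out arrays -0.68 to -0.56). Of 19 glutathione transferase genes only Mgst3, a microsomal transferase gene, was called. Its values were 11.46, 11.69 and 11.54 in wild type and 11.00, 11.04 and 11.09 in mutant replicates 1, 2 and 3, and it fell by 0.52 (SE 0.08, adjusted p = 0.0222). Removing any array except mutant replicate 3 ended its call (-0.57 to -0.46), as did the replicate number as a block (adjusted p = 0.0737). In both genes the groups did not overlap, and mutant replicate 3 stayed with the other mutant arrays. The list medians were 0.0563 and 0.0133. On the thioredoxin list, Srxn1 and Txnip were looked at with their values in view, and their groups did not overlap. Srxn1 just missed the threshold (-0.50, SE 0.10, limma adjusted p = 0.0507). It was called with the filter on low mean level, with array weights and without mutant replicate 3. Txnip read higher (0.60, SE 0.17, adjusted p = 0.156).

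None of 15 glutathione peroxidase, reductase and glyoxalase genes passed limma's threshold. The smallest p was that of Hagh, glyoxalase II, at -0.52 (SE 0.11, adjusted p = 0.0723), with a call without mutant replicate 3 (-0.46, adjusted p = 0.0335) and with array weights (-0.48, adjusted p = 0.0235). The groups did not overlap for Hagh, which read 9.87, 9.50 and 9.60 in wild type and 9.16, 9.22 and 9.02 in mutant replicates 1, 2 and 3. The list median was 0.0307.

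The methionine cycle, cysteine breakdown and transporter lists gave no calls in limma with all 6 arrays weighted equally. With array weights, 8 of their genes were called (Gnmt, Sqor, Ctns, Slc1a1, Slc1a4, Slc1a5, Slc7a5 and Slc7a8), in a fit that called 1880 of 16331 probe sets. None of 7 measured methionine cycle genes passed (median 0.0393), with the smallest p at Ahcyl1, a relative of the adenosylhomocysteine hydrolase gene (0.16, SE 0.07, adjusted p = 0.347). None of 11 genes of cysteine breakdown and sulfide metabolism passed (median 0.13), with the smallest p at Csad, a taurine synthesis gene (0.28, SE 0.11, adjusted p = 0.295). Nor did any of 13 cysteine and amino acid transporter genes (median -0.11), where the smallest p was that of Slc1a4, a neutral amino acid transporter gene (-0.41, SE 0.11, adjusted p = 0.138). Slc1a4 read 8.03, 7.98 and 7.99 in wild type and 7.36, 7.59 and 7.80 in mutant replicates 1, 2 and 3, without overlap, and was called without mutant replicate 3 (-0.52, adjusted p = 0.00781) and with array weights (-0.50, adjusted p = 0.0107). At an unadjusted p under 0.05, the counts on these 3 lists were 1, 1 and 3, and on the peroxidase list 3. Over the 9 lists 25 of 107 genes (23.4%) had such a p, beside 14.4% of all probe sets. Of 4 glutamate genes (median 0.0960) Slc1a3, a glutamate transporter gene, fell by 0.44 (SE 0.08, adjusted p = 0.0435). That call did not survive the removal of any array except mutant replicate 3 (-0.50 to -0.40). It was also lost with the trended robust prior (adjusted p = 0.0572) and with the replicate number as a block (adjusted p = 0.14).

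Genes of the NRF2 and ATF4 responses, which act on several of the 8 genes in other settings, gave a single call of 14. The groups did not overlap for 5 of the 14, beside 20.3% of all probe sets. An unadjusted limma p under 0.05 was likewise found for 5, beside 14.4% of all probe sets. Ddit3, a C/EBP family factor of the amino acid and endoplasmic reticulum stress response, read 8.00, 7.89 and 7.99 in wild type and 8.39, 8.35 and 8.33 in mutant replicates 1, 2 and 3. It rose by 0.39 (SE 0.07, limma adjusted p = 0.0342). Removing any array except mutant replicate 3 ended the call (0.36 to 0.42), as did the replicate number as a block (adjusted p = 0.122). Atf4 averaged 11.04 ± 0.05 on the wild type arrays and 11.13 ± 0.07 on the mutant arrays (SD, n = 3 per group), with a difference of 0.0893 (SE 0.07, adjusted p = 0.619). Nfe2l2, which encodes NRF2, was at -0.15 (SE 0.08, adjusted p = 0.436), and Keap1, its inhibitor, at 0.0203 (SE 0.07, adjusted p = 0.934). Keap1 changed sign without wild type replicate 3 (-0.0170) or mutant replicate 2 (-0.0077). These are transcript levels, and the activity of ATF4 and NRF2 was not measured here. The list median was -0.0903. Further genes of the list were looked at with their values in view. Asns (-0.35, limma adjusted p = 0.134) and Me1 (-0.35, adjusted p = 0.185) read lower without overlap, and Bach1 (0.33, adjusted p = 0.292) higher without overlap. Without mutant replicate 3, Hmox1, Sesn2 and Ddit4 were called lower and Bach1 and Ddit3 higher, in a fit that called 14.2% of all probe sets.

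**Figure D4:**
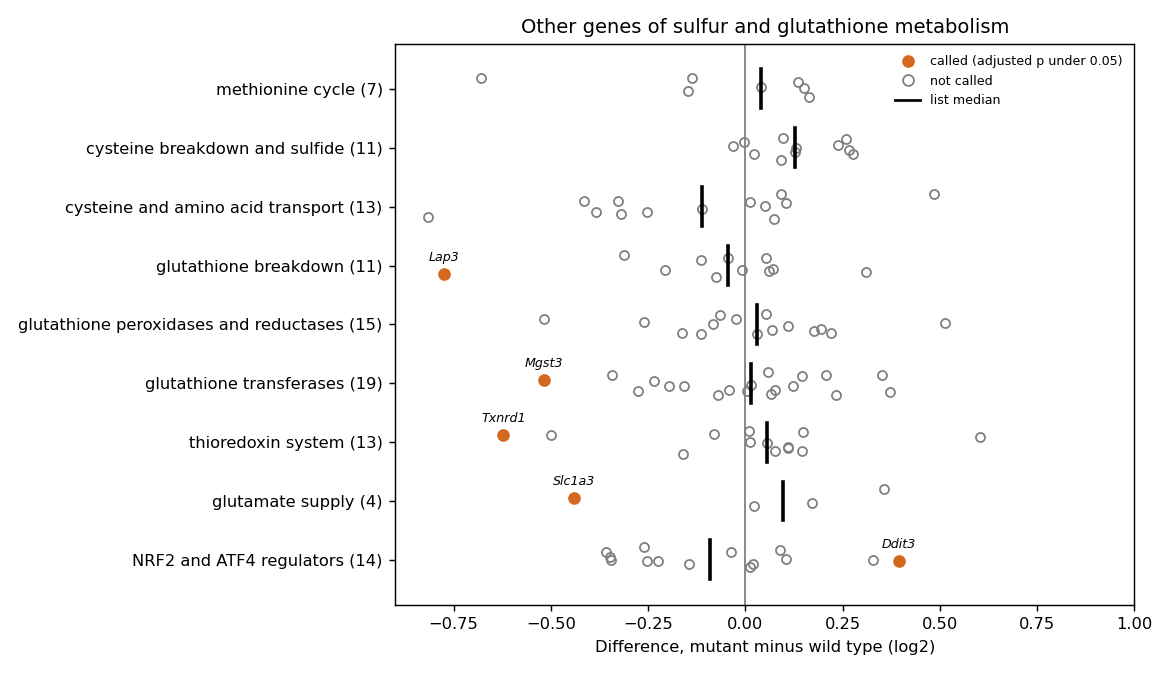
Difference between mutant and wild type skin (log2, horizontal axis) for the 107 measured genes of 9 lists, with the number measured in brackets. Filled points are called genes, open points genes that were not called, and black bars list medians. The 5 called genes lie between -0.78 and 0.39, and every list median is within 0.13 of 0.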

How the data were processed

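The values deposited by the authors are log2 expression levels of 16395 probe sets, made with RMA, per the submitters' processing notes. RMA gives every array nearly the same distribution, which hides any change in total RNA, and shrinks differences between dim probe sets. Setting aside 64 control probe sets left 16331 for testing, of which 15644 had a gene symbol in the array annotation and 687 none. The mutant minus wild type contrast was fitted in R 4.3.3 by lmFit and eBayes of limma 3.58.1 (two-sided, no filter, no block), with Benjamini-Hochberg adjustment over 16331 probe sets and a threshold of 0.05. The fitting code was tested on simulated data. Summed marker levels are log2 of the sum of unlogged values. Promoter windows came from RefSeq (GRCm38.p6).

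Groups and replicate numbers came from the sample titles. The members and lists were chosen with earlier results of these data known, and the promoter motifs after the members' values were seen. Named were all members, from each list up to 4 called genes by smallest adjusted p or else the gene with the smallest p, Nfe2l2, Keap1, Atf4, Ddit3 and Hoxc13, and the 5 nearest profiles of the 3 members with the largest differences. Classes by cysteine share of the protein were planned and not analysed here. Alternatives were repeated quantile normalisation, array centring, a filter at the lower quartile of mean level (5.500), a trended robust prior, array weights, a replicate block and leaving out each array. Figures were drawn with matplotlib 3.10.9 in Python 3.11.15.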

Additional observations from a re-analysis of the deposited data

How the results depend on the processing

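Repeated quantile normalisation, array centring, the filter on low mean level and the trended robust prior kept the calls of Chac1 and Cth, and kept the counts of calls over all probe sets, on the 9 lists and on both keratin-associated protein lists within 1.5 times of those reported. With array weights the calls numbered 1880 over all probe sets, 5 among the 8 measured genes and 25 on the 9 lists. With the replicate number as a block they numbered 197, 1 (Chac1) and 2 (Lap3 and Txnrd1). Same-numbered arrays deviated from their group means with correlations of 0.036, -0.119 and -0.087, so the numbers were not taken as pairs. With each array left out in turn the calls ranged from 151 to 2316 over all probe sets, from 1 to 6 among the 8 genes and from 0 to 30 on the 9 lists, the highest each time without mutant replicate 3. The 33 keratin-associated protein calls ranged from 32 to 34. Keap1 ranged from -0.0170 to 0.0518 and reversed sign in 2 of these fits (-0.0170 and -0.0077). The cause of these changes was not tested. The fit without mutant replicate 3 rests on 2 mutant arrays and may understate the spread between samples. These 2 arrays correlate at 0.9972, beside 0.9964 to 0.9967 among the wild type arrays. The planned classes by cysteine share were not run. Arrays have no read depth, and no detection calls were used, so the precision is set by 3 arrays per group and by distance from background, which is least for Slc7a11.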

Other observations

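Several transporter genes followed the pattern of Cbs and Slc3a2, with low values on mutant replicates 1 and 2 and values near wild type on mutant replicate 3. They were looked at after their values were seen. Over all probe sets, mutant replicates 1 and 2 both lay below the wild type range in 20.5%. Mutant replicate 3 was the highest mutant array in 44.7%. Ctns, which encodes the lysosomal cystine exporter, read 8.26, 8.39 and 8.25 in wild type and 7.58, 7.56 and 8.61 in mutant replicates 1, 2 and 3 (-0.38, limma adjusted p = 0.550). Slc7a5, another partner of Slc3a2, read 9.06, 9.05 and 9.08 in wild type and 8.46, 8.56 and 9.19 in mutant replicates 1, 2 and 3 (-0.33, adjusted p = 0.445). Both were above the wild type range on mutant replicate 3. Without mutant replicate 3, 6 of the 13 transporter genes were called lower (Slc1a1, Slc1a4, Slc7a5, Slc7a8, Slc38a1 and Ctns) and Slc1a5, a glutamine transporter gene, higher, in a fit that called 14.2% of all probe sets.

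Cdo1, cysteine dioxygenase, read 9.26, 9.60 and 9.79 in wild type and 9.98, 10.46 and 8.99 in mutant replicates 1, 2 and 3, with replicate 3 below the wild type range (0.26, limma adjusted p = 0.779 with all 6 arrays). Without mutant replicate 3, Cdo1, Gadl1 and Sqor were called higher of 11 cysteine breakdown genes and 0 lower, beside 7.95% of all probe sets called higher. The list median was 0.14 in that fit and 0.13 with all 6 arrays.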
